A study of Homo sapiens with 2 samples.

Results

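Keratins, vimentin and the actin cytoskeleton were followed through 38 genes in hypoxic PLC/PRF/5 cells, a line established from a human hepatocellular carcinoma. The 38 were chosen by gene symbol as epithelial genes set against mesenchymal and contractile genes, together with transcription factors of the epithelial-mesenchymal transition (EMT), out of 24991 single-gene symbols in the deposited table. All 38 symbols were found, each on a single row. RNA of 1 culture labelled NFX1_OE (NFX1 overexpression) was sequenced beside RNA of 1 culture labelled EV. EV is read here as the empty vector control. Both cultures were hypoxic; oxygen level and duration are not given in the sources used here, nor is how NFX1 was delivered. NFX1 is a transcription factor with zinc-finger domains. With a single library on each side there is no replicate error and no test: each value below describes these libraries, and 95% intervals of a fold cover counting error only, not the spread between cultures.

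Epithelial cells carry intermediate filaments built from paired keratins, KRT8 and KRT18 in hepatocytes and their tumours, with KRT7 and KRT19 typical of bile duct cells. During EMT, factors of the SNAI, ZEB and TWIST families repress E-cadherin (CDH1), and cells take on vimentin filaments and N-cadherin (CDH2). Actin filaments are stabilised by tropomyosins, crosslinked by actinins and filamin, pulled by non-muscle myosin II and turned over by cofilin and profilin. Smooth muscle actin (ACTA2), transgelin (TAGLN) and calponin 1 (CNN1) mark contractile cells.

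Levels are FPKM, fragment values scaled for transcript length and sequencing depth, as the authors deposited them. A change is log2 of (FPKM + 1) in the NFX1 library over (FPKM + 1) in the vector library, which understates the change of genes with low values. It was computed for 11182 genes with at least 1 FPKM in a library, here called measured, 30 of the 38 among them. Taken at full coding length, single-exon olfactory receptor genes with 1 or a few fragments gave a depth. It was about 29900000 fragments for the NFX1 library and 26300000 fragments for the vector library. FPKM times length for 1 fragment fell as length rose, and a shorter length would give greater depths. These depths, and the fragment numbers and counting intervals below, are therefore rough. NFX1 itself had 56.0 FPKM in the NFX1 library and 4.21 FPKM in the vector library, a 13.3-fold difference (95% counting interval 12.1 to 14.7), in the direction of its label. Of 11 hepatocyte and liver tumour markers all 11 were measured, with SERPINA1 at 6807 FPKM in the NFX1 library and 5935 FPKM in the vector library, while albumin (ALB) had 1.06 and 0.776 FPKM. None of 10 fibroblast and 6 endothelial markers reached 1 FPKM in either library. Of 7 smooth muscle markers only SMTN did, at 34.9 FPKM in the NFX1 library and 36.3 FPKM in the vector library.

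The abundant actin genes and their turnover factors, with KRT8, had somewhat higher values in the NFX1 library, while CDH1, vimentin and several tropomyosins did not. At a limit of 1.2-fold, 8 of the 30 measured genes were higher in the NFX1 library, against 11.5% of all measured genes. They were KRT8, ACTB, ACTG1, TAGLN, TAGLN2, CNN2, CFL1 and PFN1. On this scale, with 1 FPKM added, none of the 30 was lower by 1.2-fold, against 4.95% of all measured genes. With a pseudocount of 0.1 in place of 1, CDH1 was past the limit, at -0.31, against 9.04% of all measured genes lower at that pseudocount. At 1.5-fold none of the 30 was past the limit, against 0.42% of all genes higher and 0.215% lower, and likewise at 2-fold, against 0.107% higher and 0.0358% lower. The median change of the 30 was 0.13, beside 0.01 over all measured genes. It was 0.21 over 21 actin and contractile genes, and 0.08 over the 6 measured keratin and epithelial adhesion genes, a median that turned to -0.037 when the libraries were rescaled to equal totals and to -0.034 with equal upper quartiles.

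These counts depended on the scaling, and on a trend with GC content, transcript length and level that was subtracted as a whole. Rescaling each library to the same FPKM total left 1 gene higher by 1.2-fold, TAGLN, and 1 lower, CDH1. Over all genes it gave 664 higher (5.75%) and 1465 lower (12.7%) by 1.2-fold, against 1290 higher and 554 lower as deposited. It moved the median of all measured genes from 0.01 to -0.06, so a lower value after rescaling is in part this common shift. Setting the upper quartiles equal gave 609 higher (5.46%) and 1215 lower (10.9%).

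**Figure D1:**
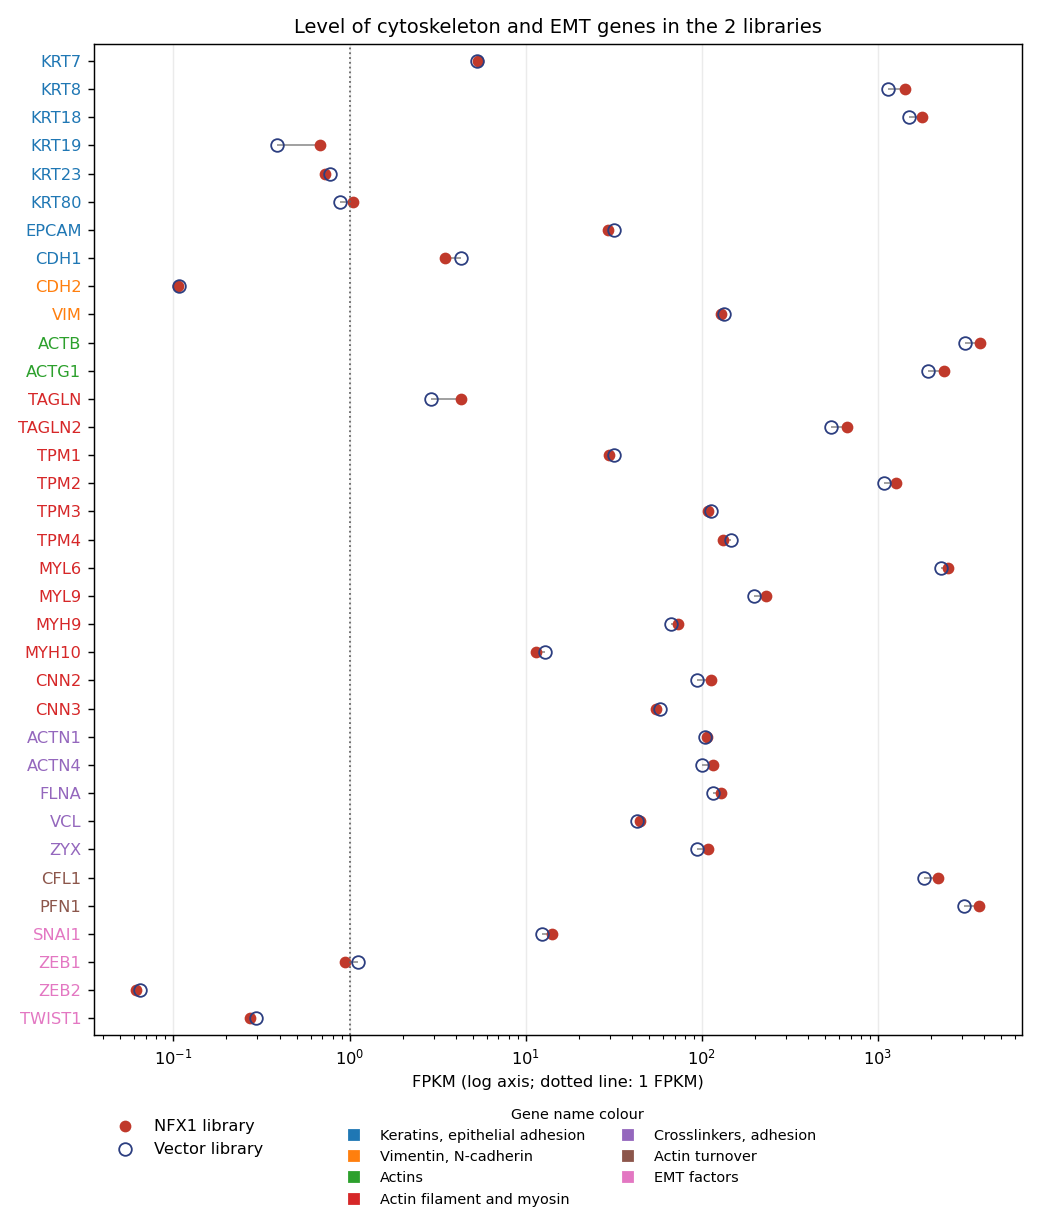
Level of each gene listed above 0 in both libraries, in FPKM on a log axis; filled points are the NFX1 library and open points the vector library, 1 library each. Pairs lie close together over a range from ZEB2 at 0.0615 FPKM in the NFX1 library to ACTB at 3808 FPKM; ACTA2, CNN1 and SNAI2, listed at 0 in at least 1 library, are not drawn.

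KRT8 and KRT18, the partner keratins of hepatocytes, dominated the keratin genes. KRT18 had 1783 FPKM in the NFX1 library and 1502 FPKM in the vector library, and KRT8 had 1418 and 1140 FPKM. The change was 0.31 for KRT8 and 0.25 for KRT18, so KRT8 alone passed 1.2-fold. The ratio of KRT8 to KRT18 was 0.795 in the NFX1 library and 0.759 in the vector library. The table gives the pair 1 shared locus (chromosome 12, 53290971 to 53346685, hg19). Windows of 50 bases in their transcripts recur in transcripts of other genes, most often the pseudogenes KRT8P3 and KRT18P11, at 13.8% of windows for KRT8 and 24.0% for KRT18, so their values are uncertain.

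The other keratins were far lower. KRT7, a keratin of ducts and glands, had 5.39 FPKM in the NFX1 library and 5.27 FPKM in the vector library, a change of 0.03 that turned to -0.04 after rescaling, and its fold had a 95% interval from counting of 0.816 to 1.28. KRT80 had 1.05 FPKM in the NFX1 library and 0.880 FPKM in the vector library. KRT19, the other duct keratin, stayed under 1 FPKM in both libraries, at 0.675 FPKM in the NFX1 library and 0.388 FPKM in the vector library. Those are an estimated 28 and 14 fragments, and the interval of 0.896 to 3.62 for the fold spans equality. KRT23 had 0.725 FPKM in the NFX1 library and 0.779 FPKM in the vector library.

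The epithelial adhesion genes had lower values in the NFX1 library. CDH1 had 3.47 FPKM in the NFX1 library and 4.31 FPKM in the vector library, an estimated 342 and 374 fragments. Its fold was 0.805 (counting interval 0.693 to 0.934) and its change -0.25, the lowest of the 30. EPCAM, an epithelial adhesion molecule, had 29.3 FPKM in the NFX1 library and 31.6 FPKM in the vector library. Its interval of 0.862 to 1.002 includes equality. Per kilobase EPCAM lay well above CDH1 in both libraries.

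Vimentin (VIM), the intermediate filament protein of mesenchymal cells, had 129 FPKM in the NFX1 library and 134 FPKM in the vector library, a change of -0.05. Per kilobase it lay far above CDH1 in both libraries and far below KRT8 and KRT18. CDH2 was at 0.106 FPKM in the NFX1 library and 0.107 FPKM in the vector library, an estimated 13 and 11 fragments, which do not show a difference at this depth. Higher vimentin with lower E-cadherin, the pairing that EMT is known for, was not seen between these libraries.

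Among the EMT factors only SNAI1 was well above 1 FPKM. SNAI1, a repressor of CDH1, had 14.1 FPKM in the NFX1 library and 12.4 FPKM in the vector library, 1.14-fold higher (counting interval 1.02 to 1.27). Its change of 0.17 was 0.10 after rescaling to equal totals and 0.03 after subtraction of the trend. ZEB1, also a repressor of CDH1, had 0.945 FPKM in the NFX1 library and 1.11 FPKM in the vector library. Its interval of 0.673 to 1.06 includes equality. TWIST1 had 0.273 FPKM in the NFX1 library and 0.294 FPKM in the vector library, and ZEB2 0.0615 and 0.0645 FPKM. SNAI2 had 0.0130 FPKM in the NFX1 library, about 1 fragment, and was listed at 0 in the vector library. No difference in ZEB2, TWIST1 or SNAI2 was detectable at this depth.

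The cytoplasmic actins were among the most abundant of the 38, with the profilin gene PFN1 and the myosin light chain gene MYL6. ACTB (chromosome 7, 5566779 to 5570232, hg19) had 3808 FPKM in the NFX1 library and 3112 FPKM in the vector library, a change of 0.29. ACTG1 (chromosome 17, 79476997 to 79479892, hg19) had 2370 FPKM in the NFX1 library and 1912 FPKM in the vector library, a change of 0.31. The fold was 1.22 for ACTB (counting interval 1.22 to 1.23) and 1.24 for ACTG1 (1.23 to 1.25). Both were higher to a like degree, so that ACTB made up 61.6% of their summed FPKM in the NFX1 library and 61.9% in the vector library. ACTA2 was listed at 0 in both libraries. So was FAS, which the table places at the same locus (chromosome 10, 90692441 to 90775542, hg19), and whether these zeros are failed estimates was not tested.

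Many actin cytoskeleton genes are known targets of serum response factor (SRF), which binds the CArG box. SRF had 37.5 FPKM in the NFX1 library and 31.7 FPKM in the vector library, a change of 0.23 that was 0.07 after subtraction of the trend described further on. A CArG box lies within 250 bases before a start site in 5 of the 25 genes with a RefSeq promoter sequence (GRCh38.p14): ACTG1, CNN2, FLNA, TPM4 and ACTN1. Counted by start sites these are 5 of 44. Over all promoters of that length the box was found at 1.16% of 35116 start sites and in 1.44% of 27305 genes. The rest of the 38, with ACTB, TAGLN and MYL9 among them, had no such sequence here and were not searched. The box reads alike on both strands, so that a single search covers both. It is a match of letters, not a measured binding site, and genes with the box were higher (ACTG1 and CNN2) as well as lower (TPM4) in the NFX1 library. The 250 bases before the start are shown for 4 of the 5, as members that carry the box and differ in their change, with the box in capitals. They are ACTG1 (chr17:81512800-81513049, minus strand), CNN2 (chr19:1026358-1026607, plus strand), FLNA (chrX:154374635-154374884, minus strand) and TPM4 (chr19:16067288-16067537, plus strand, 1 of 3 starts).
ACTG1: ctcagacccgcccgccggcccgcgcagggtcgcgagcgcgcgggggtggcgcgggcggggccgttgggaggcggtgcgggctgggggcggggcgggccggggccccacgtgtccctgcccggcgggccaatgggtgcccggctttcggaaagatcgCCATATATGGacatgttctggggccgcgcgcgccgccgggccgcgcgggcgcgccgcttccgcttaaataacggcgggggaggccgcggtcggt
CNN2: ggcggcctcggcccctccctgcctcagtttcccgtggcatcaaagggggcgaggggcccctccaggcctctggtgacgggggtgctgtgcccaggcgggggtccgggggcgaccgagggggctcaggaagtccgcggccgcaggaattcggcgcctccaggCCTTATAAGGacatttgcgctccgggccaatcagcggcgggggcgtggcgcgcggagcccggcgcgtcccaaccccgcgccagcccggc
FLNA: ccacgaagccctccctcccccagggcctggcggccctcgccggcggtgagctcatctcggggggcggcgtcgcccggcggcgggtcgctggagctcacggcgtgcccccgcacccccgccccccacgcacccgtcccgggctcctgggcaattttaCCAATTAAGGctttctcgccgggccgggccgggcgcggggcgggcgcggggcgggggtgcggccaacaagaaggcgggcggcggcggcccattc
TPM4: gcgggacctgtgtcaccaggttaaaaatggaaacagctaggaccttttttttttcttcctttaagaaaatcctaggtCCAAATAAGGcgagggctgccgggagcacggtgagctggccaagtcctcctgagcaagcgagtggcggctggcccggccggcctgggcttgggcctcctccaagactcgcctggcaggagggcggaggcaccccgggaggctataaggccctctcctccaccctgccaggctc
The box begins 94 bases before the start in ACTG1, 89 in CNN2, 94 in FLNA and 173 in TPM4. The changes of these genes were 0.31 for ACTG1, 0.27 for CNN2, 0.14 for FLNA and -0.14 for TPM4. ACTN1, whose box precedes 1 of its 4 starts, had a change of 0.05.

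The turnover factors resembled the actins. PFN1, profilin 1, which loads actin monomers for growth, had 3757 FPKM in the NFX1 library and 3064 FPKM in the vector library, a change of 0.29. CFL1, cofilin 1, which severs actin filaments, had 2201 FPKM in the NFX1 library and 1818 FPKM in the vector library, a change of 0.28. Their less abundant relatives were not higher as deposited: PFN2 had a change of -0.09 and CFL2 of -0.05. After subtraction of the trend CFL2 was at 0.01 and CFL1 at 0.02, with little between them, and PFN2 was at -0.08 and PFN1 at 0.09. PFN1 shares 5.55% of its transcript windows with a pseudogene, PFN1P1, and ACTB shares 6.66% with other genes. The same count was 11.7% for TPM4 and 6.89% for TAGLN2, described next.

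Among proteins that coat the actin filament, tropomyosins and calponins had higher as well as lower members as deposited; after subtraction of the trend TPM2, at -0.03, was lower like the other tropomyosins. TPM2, a tropomyosin, had 1272 FPKM in the NFX1 library and 1086 FPKM in the vector library, a change of 0.23. The other tropomyosins were lower in the NFX1 library, with TPM4 at 133 FPKM against 147 FPKM, TPM3 at 109 against 113 FPKM and TPM1 at 29.8 against 31.7 FPKM in the vector library. Their changes were -0.14, -0.06 and -0.09, and the counting interval of the fold was 0.879 to 0.930 for TPM4 and 0.858 to 1.03 for TPM1. TPM2 thus made up 82.4% of summed tropomyosin FPKM in the NFX1 library and 78.9% in the vector library. Of the calponins, CNN2 had 113 FPKM in the NFX1 library and 93.3 FPKM in the vector library, a change of 0.27, and CNN3 had 55.0 and 58.0 FPKM, a change of -0.08. CNN1, the smooth muscle calponin, had 0.0175 FPKM in the NFX1 library, about 1 fragment, and was listed at 0 in the vector library.

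Both transgelins were higher in the NFX1 library, at very different levels. TAGLN2, the widely expressed form, had 663 FPKM in the NFX1 library and 544 FPKM in the vector library, a change of 0.28. TAGLN, the smooth muscle form, had 4.30 FPKM in the NFX1 library and 2.90 FPKM in the vector library, an estimated 157 and 93 fragments. Its fold of 1.48 had a counting interval of 1.14 to 1.94, and its change of 0.44 was the greatest of the 30. At a pseudocount of 5 this change was 0.24, under the 1.2-fold limit. The table places TAGLN at a locus that also holds SIDT2 (chromosome 11, 117049455 to 117075508, hg19), a gene with 51.7 FPKM in the NFX1 library and 47.7 FPKM in the vector library. The part of SIDT2 reads in the TAGLN value was not tested.

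The myosin II heavy chains differed in direction, and the light chains were both higher as deposited. MYH9, the heavy chain of non-muscle myosin IIA, had 73.1 FPKM in the NFX1 library and 66.6 FPKM in the vector library, a change of 0.13. MYH10, the heavy chain of IIB, had 11.5 FPKM in the NFX1 library and 12.9 FPKM in the vector library, a change of -0.16. The light chains MYL6 and MYL9 were higher, MYL6 with 2495 FPKM in the NFX1 library and 2294 FPKM in the vector library, and MYL9 with 231 and 197 FPKM. Their changes were 0.12 and 0.23, and none of these 4 myosin genes passed 1.2-fold. After subtraction of the trend the change was 0.02 for MYH9, -0.08 for MYH10, -0.04 for MYL6 and 0.00 for MYL9.

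**Figure D2:**
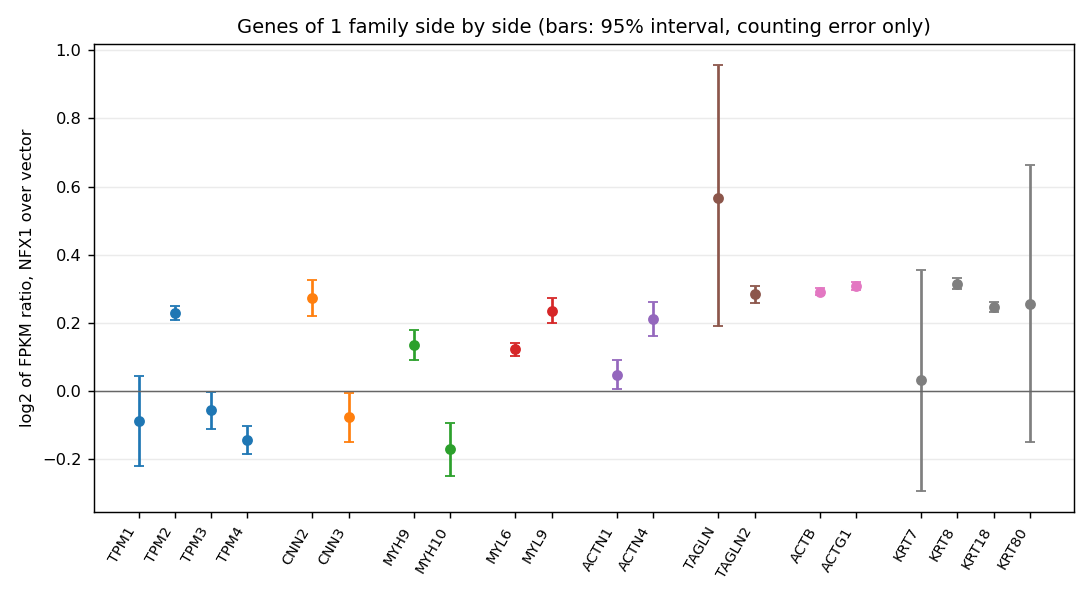
log2 of the FPKM ratio, NFX1 over vector, for genes of 1 family placed side by side; points are the single ratio and bars its 95% interval from estimated fragments, counting error only. TPM2 lies above 0 and TPM4 below, CNN2 above and CNN3 below, MYH9 above and MYH10 below, while ACTB and ACTG1 lie together.

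Crosslinkers and adhesion proteins were higher by small amounts as deposited, and none passed 1.2-fold; ACTN1 and VCL turned lower after rescaling, and ACTN1, ACTN4, FLNA and ZYX after subtraction of the trend. ACTN4, an actinin that bundles filaments, had 116 FPKM in the NFX1 library and 99.9 FPKM in the vector library, a change of 0.21. ZYX, zyxin of focal adhesions, had 109 FPKM in the NFX1 library and 94.2 FPKM in the vector library, also a change of 0.21. FLNA, filamin A, had 128 FPKM in the NFX1 library and 116 FPKM in the vector library, a change of 0.14. ACTN1 and vinculin (VCL), which anchors actin at adhesions, had changes of 0.05 each, which turned to -0.03 for ACTN1 and -0.03 for VCL after rescaling to equal totals.

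Higher and lower genes differed in base composition. Of 8 measured genes with transcripts under 50% GC, 1 was higher in the NFX1 library (VCL), and of 22 with at least 50% GC, 20 were higher, the exceptions being VIM and TPM1. The same split over all measured genes gave 23.3% higher under 50% GC and 79.6% higher from 50% GC. Among all genes grouped by GC content into 5 equal bins, the median change was -0.11 in the lowest bin and 0.20 in the highest. Across the 30 genes Spearman's rho between change and GC content was 0.63, and between change and level 0.55; over 10971 genes rho with GC content was 0.63. These points share their libraries and are given as a description.

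When a trend in GC content, transcript length and level was fitted to the changes over all genes and subtracted, the median of the 30 genes was -0.01, with 14 higher and 16 lower. TAGLN, at 0.29, was then the only one past 1.2-fold, against 3.09% of all genes higher and 3.45% lower. The change of ACTG1 became 0.12, of ACTB 0.09, of PFN1 0.09 and of KRT8 0.07. That of KRT18 became 0.01, of CFL1 0.02 and of MYL9 0.00. Those of KRT7 (-0.15), TPM2 (-0.03), MYL6 (-0.04), ACTN1 (-0.12), FLNA (-0.05), ACTN4 (-0.02) and ZYX (-0.03) turned negative, and that of ZEB1 turned positive (0.02). CDH1 remained lower at -0.18, and VIM moved further down to -0.17. With 1 library on each side the trend and the overexpression cannot be told apart.

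**Figure D3:**
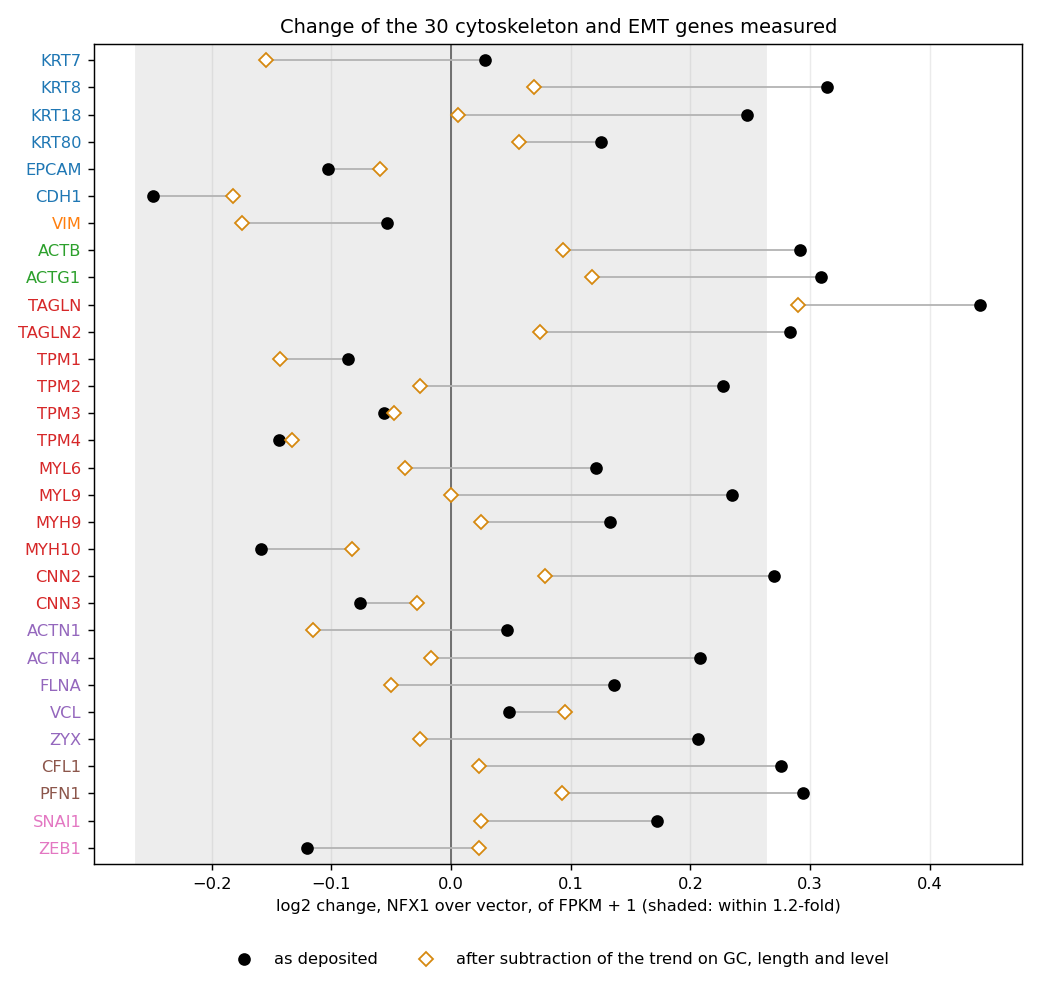
log2 change of FPKM + 1, NFX1 over vector, for each of the 30 measured genes, as deposited (black circles) and after subtraction of that trend (open diamonds); shading marks changes within 1.2-fold. As deposited 8 genes lie right of the shading, and after subtraction only TAGLN does.

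**Figure D4:**
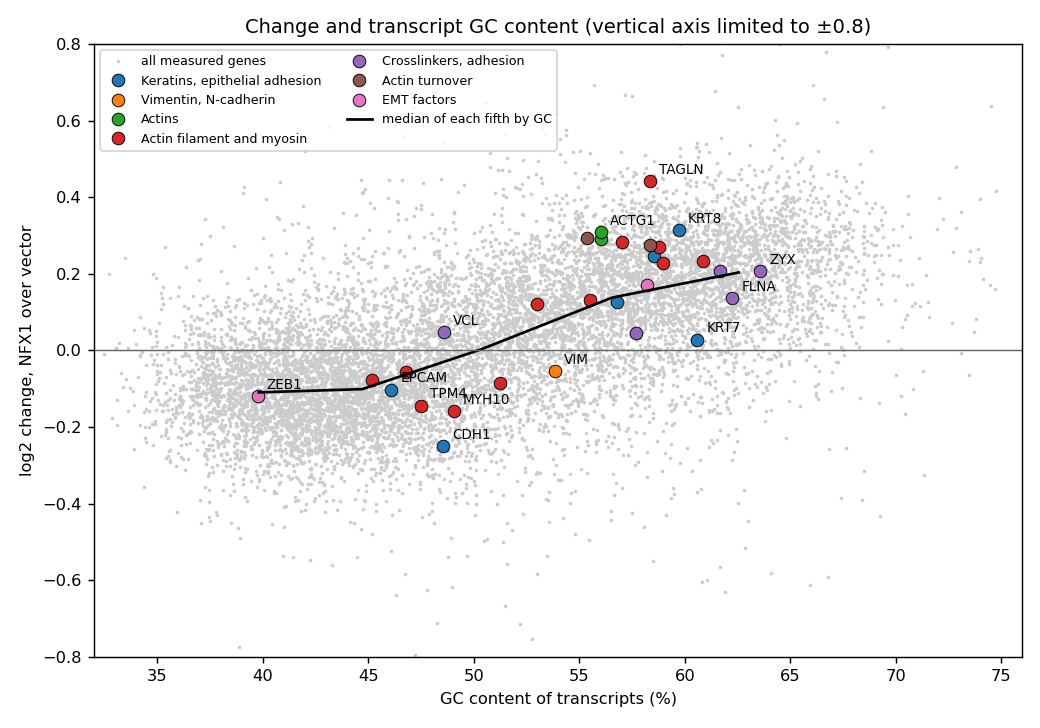
log2 change, NFX1 over vector, against transcript GC content in percent; grey points are all measured genes with a transcript (24 with changes beyond 0.8 in size are not drawn), coloured points the 30 genes by group, and the line joins medians of 5 bins by GC content. Among the genes described here TAGLN (0.44), ACTG1 (0.31), ACTB (0.29) and PFN1 (0.29) lie above the line, and VIM (-0.05), MYH10 (-0.16), KRT7 (0.03) and CDH1 (-0.25) below it.

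Lists of other cytoskeleton genes, chosen with earlier results known, had medians between -0.06 and 0.06, with the exception of the tubulins at 0.19. Of 35 listed genes of the Arp2/3 complex, capping and filament turnover, 34 were measured, 17 higher and 17 lower, with a median of -0.01. After rescaling 13 were higher and 21 lower, with a median of -0.09, beside -0.06 over all measured genes. CORO1B, a coronin, had 246 FPKM in the NFX1 library and 192 FPKM in the vector library, and CAP1, a monomer-binding protein, had 267 and 315 FPKM. The thymosin TMSB4X, which holds actin monomers, had a change of 0.22. Other contractile genes had a median of -0.06 over 12 measured, 10 of them lower, against 5366 of 11182 over all measured genes. After subtraction of the trend 8 were lower and 4 higher, with a median of -0.05. CALD1 (caldesmon) had a change of -0.14 and MYH14 of 0.14, which became -0.07 and -0.01 after that subtraction. Focal adhesion and crosslinking genes had a median of 0.00 over 37 measured, and of -0.06 after rescaling, beside -0.06 over all measured genes. There the LIM domain protein CSRP1 had 150 FPKM in the NFX1 library and 123 FPKM in the vector library, CSRP2 had 54.6 and 65.7 FPKM, and the integrins ITGAV and ITGB1 had changes of -0.30 and -0.25.

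Epithelial junction genes numbered 28 measured of 35, with a median of -0.05, 5 past 1.2-fold higher and none lower, against 11.5% of all measured genes higher and 4.95% lower. After subtraction of the trend 1 was past the limit in each direction, against 3.09% of all genes higher and 3.45% lower. CLDN4, a claudin of tight junctions, had 11.9 FPKM in the NFX1 library and 7.14 FPKM in the vector library, a fold of 1.67 (1.53 to 1.82) and a change of 0.67 that was 0.57 after subtraction of the trend. JUP, plakoglobin, had 121 FPKM in the NFX1 library and 101 FPKM in the vector library. Desmoplakin (DSP), which ties keratin filaments to desmosomes, was lower, with 25.7 FPKM in the NFX1 library and 30.5 FPKM in the vector library. Other mesenchymal genes had a median of -0.04 over 11 measured of 25, none past 1.2-fold higher, against 11.5% of all measured genes, and 2 lower, against 4.95%. Fibronectin (FN1), a matrix protein, had 515 FPKM in the NFX1 library and 578 FPKM in the vector library. Of 30 other keratins 5 were measured, and 13 were listed at 0 in both libraries; KRT10 led them with 18.7 FPKM in the NFX1 library and 17.5 FPKM in the vector library.

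Regulators of actin-linked transcription were mixed. Of 18 SRF, MRTF and YAP pathway genes 15 were measured, with a median of 0.06, beside 0.01 over all measured genes. After rescaling it was -0.01, beside -0.06 over all measured genes. YAP1, a coactivator that responds to cell tension, had 25.2 FPKM in the NFX1 library and 31.0 FPKM in the vector library, a change of -0.29. Its target CYR61 had 527 and 631 FPKM, a change of -0.26, and TEAD4, a DNA-binding partner of YAP1, had a change of 0.27.

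**Figure D5:**
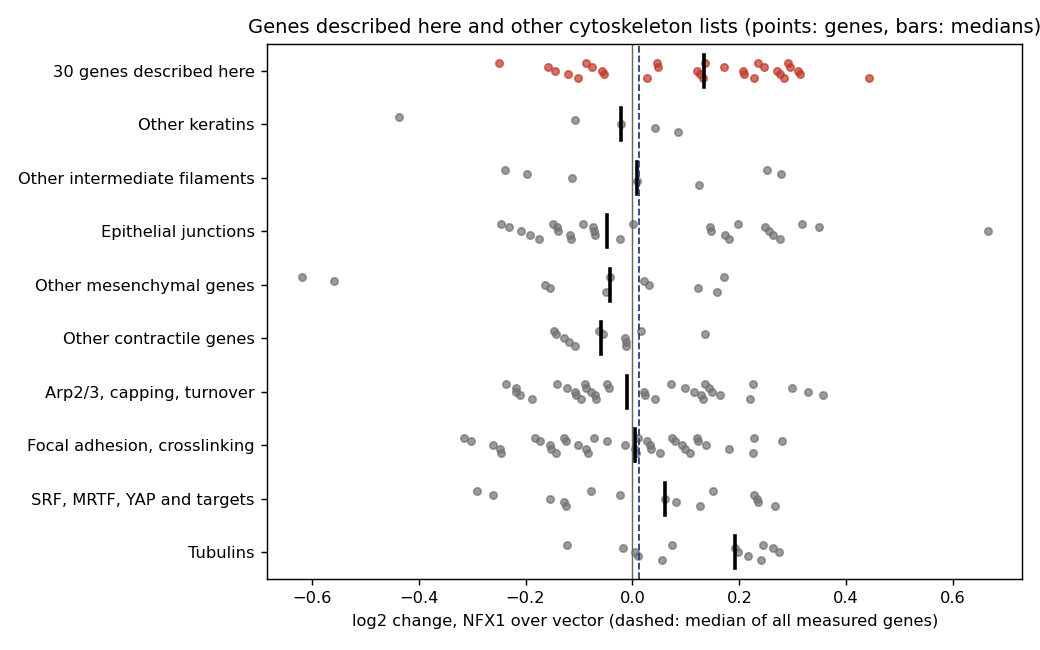
log2 change, NFX1 over vector, of the 30 genes described here and of 9 other lists; each point is a measured gene, each black bar the median of its list and the dashed line the median of all measured genes, 0.01. The 30 genes have a median of 0.13, and other contractile genes -0.06.

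Of the 38 genes, 33 were tested in the authors' deposited table and none was marked as significant there, against 18 of all 14994 tested rows. With so few rows marked, the absence of marks among 33 genes says little about them. The lowest p-value among them in the authors' deposited table was 0.225, for KRT19, with q = 0.999. With single libraries these p-values carry no measure of variation among cultures.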

How the data were processed

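RNA of 1 NFX1 and 1 vector culture was compared, with groups from the genotype labels. TopHat2 2.1.0 and Cufflinks 2.2.1 with hg19 are listed per the submitters' processing notes; scaling and annotation: not given in the sources used here. Values were deposited as FPKM. The authors' table also has a log2 fold change column; its test score and p-value or q-value columns are, per the file headers, from the authors. Out of 28658 rows, 1651 lacked a symbol and 492 named several genes, and both kinds were left out; for a repeated symbol the row of greatest mean FPKM was kept. The genes and lists, the 1.2-fold limit and the naming rule were chosen with earlier results of these data known. The rule names all 38 genes, NFX1 and up to 4 genes of each other list by size of change among those with 5 FPKM or more; SRF, PFN2, CFL2, SIDT2 and FAS were named after their values were seen.

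Fragments were estimated from FPKM, the median length of GENCODE basic transcripts (matched by symbol or RefSeq synonym) and the value of 1 fragment. That value was the median over olfactory receptor genes whose locus equals their coding exon. Of these, 7 of 7 values above 0 in the NFX1 library and 6 of 6 in the vector library lay within 0.1 of a whole number. Most of them were single fragments that also set the value, so this closeness is no independent check of it. Intervals are exact (Clopper-Pearson) and depend on the length used. FPKM times kilobases for 1 fragment was 0.03375 at 927 bases and 0.03299 at 981 bases in the NFX1 library. In the vector library it was 0.03848 at 945 bases and 0.03791 at 981 bases. A single value of 1 fragment at full length is thus approximate, and its error differs between short and long genes. The trend was fitted with cubic splines (5 knots) on genes within 2-fold, for 10971 genes (98.1%), and was tested on simulated data; it took 42.0% of the variance of the change. Software was scikit-learn 1.9.0, scipy 1.17.1, matplotlib 3.10.9, pandas 2.3.3 and numpy 2.4.6 under Python 3.11.15.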

Additional observations from a re-analysis of the deposited data

How the results depend on the processing

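Pseudocounts of 0.1 and 5 gave a change of 3.70 and 2.73 for NFX1. The number of genes past 1.2-fold was 8 as reported, 2 after rescaling to equal totals, 2 with equal upper quartiles and 1 after subtraction of the trend. Without 8 genes that have near-identical copies it was 3 of 22, all higher, against 11.54% of all genes higher. With a pseudocount of 0.1 the number was 9 of the 30, 8 higher and 1 lower (CDH1), against 14.1% of all genes higher and 9.04% lower. The shares of all genes were 5.75% higher and 12.7% lower after rescaling, and 5.46% and 10.9% with equal upper quartiles. The number of the 30 past the limit was 0 at limits of 1.5 and 2. The median of the measured genes, 0.13 as reported, was 0.085 with no filter on low values, 0.062 after rescaling, 0.064 with equal upper quartiles, -0.0084 after subtraction of the trend and 0.087 without near-identical copies. The genes counted were 38 with no filter, 31 after rescaling and 29 with equal upper quartiles, so these medians are not of the same 30. The median of all measured genes was -0.056 after rescaling and -0.052 with equal upper quartiles. The median of the keratin and epithelial adhesion genes, 0.08 as reported, was -0.0368 after rescaling and -0.0336 with equal upper quartiles, each over a changed set of genes. It was -0.0265 after subtraction of the trend, 0.13 with a pseudocount of 0.1, 0.029 with a pseudocount of 5 and 0.14 among genes of at least 5 FPKM. That of the actin and contractile genes, 0.21 as reported, was 0.14 with no filter, 0.13 after rescaling, 0.13 with equal upper quartiles, -0.0165 after subtraction of the trend and 0.14 without near-identical copies. The cause of these shifts was not tested. For single genes, 17 of 30 changes moved by more than their counting interval on subtraction of the trend and 21 of 30 on rescaling, while none of 30 did with either pseudocount, summed rows or tested rows only. Centring on the median of all genes left 7 genes past 1.2-fold, all higher, against 10.45% of all genes higher and 5.92% lower. No paired analysis was possible because each group has a single library. Low counts limit KRT19, KRT23, CDH2, CNN1, SNAI2, ZEB2 and TWIST1, for which no difference was detectable.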

Other observations

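Tubulins, the subunits of microtubules, were also among the abundant cytoskeleton genes with higher values in the NFX1 library. Of 14 listed tubulin and microtubule genes 13 were measured, 11 higher and 2 lower, with a median change of 0.19 that was 0.12 after rescaling, with 8 higher and 5 lower, and 0.03 after subtraction of the trend. TUBB4B had 690 FPKM in the NFX1 library and 571 FPKM in the vector library, and TUBA1B had 1361 and 1152 FPKM. Among genes with a mean of at least 1000 FPKM, 92 of 106 were higher in the NFX1 library, with a median change of 0.21, and so were all 8 of the 38 cytoskeleton and EMT genes at that level, with changes from 0.12 to 0.31. The nuclear lamins LMNA and LMNB2 were at 0.28 and 0.25 as deposited and at 0.05 and 0.06 once the trend was taken off.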
